A study of Brassica napus with 6 samples.

Results

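Gene-poor stretches of the oilseed rape (Brassica napus) chromosomes were described in cotyledon RNA-seq of a bnsdp1 mutant and of the wild type (WT). The chromosomes were cut into 1 Mb windows by gene start, and the 10% of windows with the fewest genes, ties included, were taken, with the last window of each chromosome dropped. That gave 95 windows with at most 22 genes each. Leaving out A05 13 to 26 Mb and A09 27 to 39 Mb removed 4 of them, so 91 of 960 windows with a gene remained (9.48%). They held 1001 of the 100919 genes in the table (0.992%), 619 on the A and 382 on the C chromosomes. The windows were ranked by gene number alone, while the A05 and A09 stretches were left out with earlier results of these data known.

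The study compared 3 libraries of the mutant with 3 libraries of WT. The design text names 1 mutant line, bnsdp1#CR88, and the labels give neither the mutated copies nor the cultivar. SDP1 is known in Arabidopsis as a lipase that breaks down stored seed oil, and the design text gives the effect of disturbed lipid metabolism in seedling cotyledons as the question. Both genotypes grew on 1/2MS medium with 1% sucrose, spent 4 days in the dark and then 6 h under normal conditions, and polyA RNA of cotyledons was sequenced. Separate cultures are not stated for the replicates, so the p-values cover the scatter among 6 libraries, part or all of which may be technical. The gene IDs are not paired with names in the tables used here, so cotyledon markers and the mutated gene were not analysed here, and no gene of these windows is given a function.

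Brassica napus joins an A and a C subgenome, and the C chromosomes are the larger and richer in repeats. In plant chromosomes, genes are usually sparse around the centromeres, where transposons are dense, DNA and histone H3 lysine 9 are methylated, and crossing-over is rare. Genes there are often short models, fragments or copies related to transposons, and many are silent in any one tissue.

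The label of chromosome interiors held for most windows. Of the 91 windows, 71 had their centre in the central 50% of their chromosome, 44 of 55 on A (80%) and 27 of 36 on C (75%). The largest exceptions were A03 34 to 42 Mb, which lay towards the chromosome end at relative positions up to 0.922, and C06 0 to 5 Mb and C07 0 to 1 Mb at the chromosome starts. C08 12 to 13 Mb and A08 6 to 7 Mb lay just outside the central 50%, at 0.231 and 0.224. Windows outside it held much of the RNA counts. C08 12 to 13 Mb had 358095 of the 774463 C counts, and A03 34 to 42 Mb had 113818 of the 313055 A counts. Gene-poor windows made up 14.0% of the A windows and 6.36% of the C windows. The C chromosomes had 7 windows without any gene and the A chromosomes 1, and such windows were not counted. The windows formed 38 runs of adjacent windows, of which 16 were single windows and 13 spanned 3 or more. A gene-poor window held a median of 10 genes, 12 on A and 8.5 on C, where all windows held a median of 98.

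**Figure D1:**
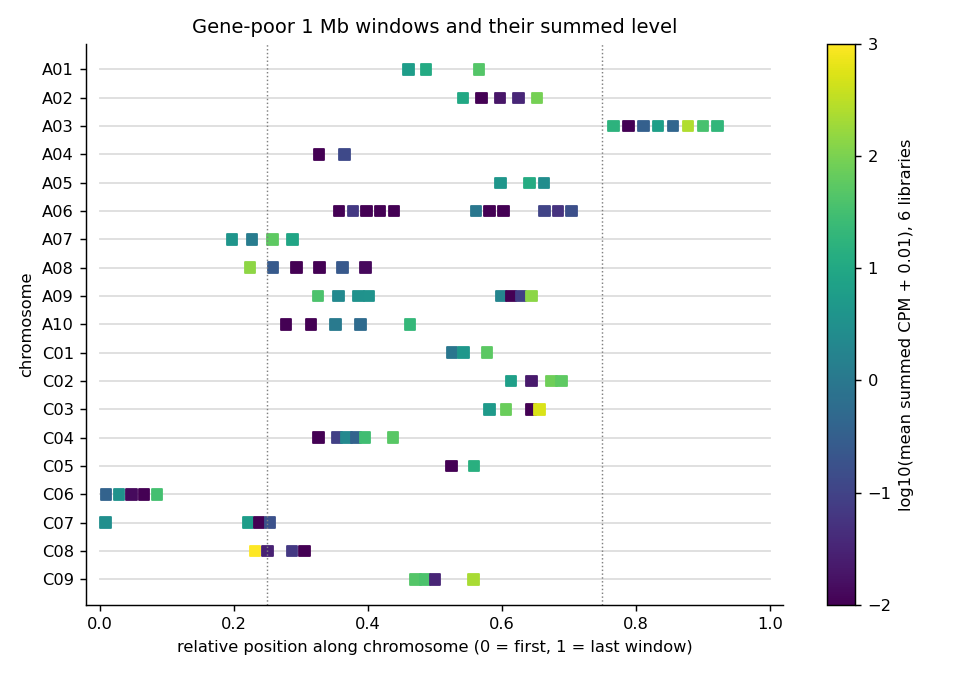
Each square is 1 gene-poor window, placed by its relative position along the chromosome (x axis, 0 at the first and 1 at the last window) on the 10 A and 9 C chromosomes (y axis). Colour is the log10 of the summed CPM (counts per 1000000 counts of the scaled library) plus 0.01, averaged over the 6 libraries, and the dotted lines bound the central 50%, in which 71 of the 91 windows lie.

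The genes of these windows were short, and the wide gaps between them follow from the choice of windows by gene number. Their median span was 860 bp, 811 bp on A and 876 bp on C, against 1399 bp over all genes. A span of 300 bp or less was found for 18.2% of them, against 7.15% of all genes. The median gap to the next gene was 15.7 kb on A and 18.8 kb on C, where all genes had a median gap of 2.59 kb. None of the 1001 genes overlapped another gene of the table, and 51.1% lay on the plus strand.

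Most of these genes gave no RNA signal. No read was counted in any of the 6 libraries for 594 genes (59.3%), against 25.6% of all genes, and 129 more had 1 to 29 reads in all. The share without a read was 61.9% on A, against 20.97% of the other A genes, and 55.2% on C, against 26.99% of the other C genes. A summed count of at least 30 was reached by 278 genes (27.8%), 155 on A (25.04%) and 123 on C (32.2%), where 59.4% of all genes reached it, and only these 278 were tested. The tested genes had a median span of 1260 bp and the untested ones 660 bp. On A06, 1 of 114 genes could be tested, and on A04 none of 22. The number of genes with a read was 333 ± 7.64 per mutant library and 328 ± 6.81 per WT library (SD, n = 3 each), so the genotypes differed by less than the spread between libraries.

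Among the tested genes the level was low, and lower on A than on C. Per kilobase of gene span, the median level was 0.741 CPM on A and 1.45 on C, against 2.02 over all tested genes, 1.98 for the other A genes and 2.23 for the other C genes. A mean of 10 CPM or more, not scaled by length, was reached by 15 of the tested A genes and 33 of the tested C genes, together 17.3% of the tested genes, against 28.5% of all tested genes. A few genes carried most of the counts. The 10 genes with the most counts held 69.3% of the counts on A and 71.7% on C. The scatter between replicates, as edgeR's biological coefficient of variation, had a median of 0.2997 on A and 0.164 on C, against 0.143 over all tested genes.

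The libraries held 48288744 to 65550668 counts. Across all tested genes, log2 CPM correlated at 0.986 to 0.993 within a genotype and at 0.899 to 0.924 between genotypes. In many tested A genes, single libraries stood apart from the others of their genotype. WT replicate 3 was the lowest of the 6 libraries for 67 of the 155 A genes (43.2%), for 22 of the 123 C genes (17.9%) and for 18.1% of all tested genes. Mutant replicate 1 was the highest for 38.1% of the A genes, 24.4% of the C genes and 22.9% of all tested genes. Both held for 43 A genes (27.7%) and 10 C genes (8.13%), against 7.98% of all tested genes. Of those 43 A genes, 35 lay on A01, A05 and A09.

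A group of the A genes shared exact gene spans with many other genes of the table. After their values were seen, spans of at least 900 bp held by 60 or more tested genes were collected. There were 11 such spans, of 934 to 2325 bp, and 28 tested A genes and 7 tested C genes had one. WT replicate 3 was the lowest library for 21 of these 28 A genes (75%) and for 4 of the 7 C genes. It was the lowest for 82.2% of all 1374 tested genes with such a span anywhere in the table, and mutant replicate 1 was the highest for 63.2% of them, so the pattern was also seen outside gene-poor windows. For the 28 A genes, the median log2 ratio to the WT mean was 0.32, 0.02 and 0.13 in the mutant libraries. It was 0.42, 0.15 and -0.55 in the WT libraries, each taken against the other WT libraries. Of the 35 genes on both subgenomes, edgeR called 0 higher and 3 lower in the mutant at an adjusted p under 0.05, 0 and 3 at an unadjusted p under 0.05. DESeq2 also called 0 higher and 3 lower, and limma voom called 1 higher and 3 lower. The edgeR share of 8.57% lay near the 7.93% of all 1374 tested genes with such a span, where 49.3% of all tested genes were called. Equal spans are what near-identical copies would have, and counts of such copies are uncertain, but the sequences were not analysed here. What sets these libraries apart was not tested.

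**Figure D2:**
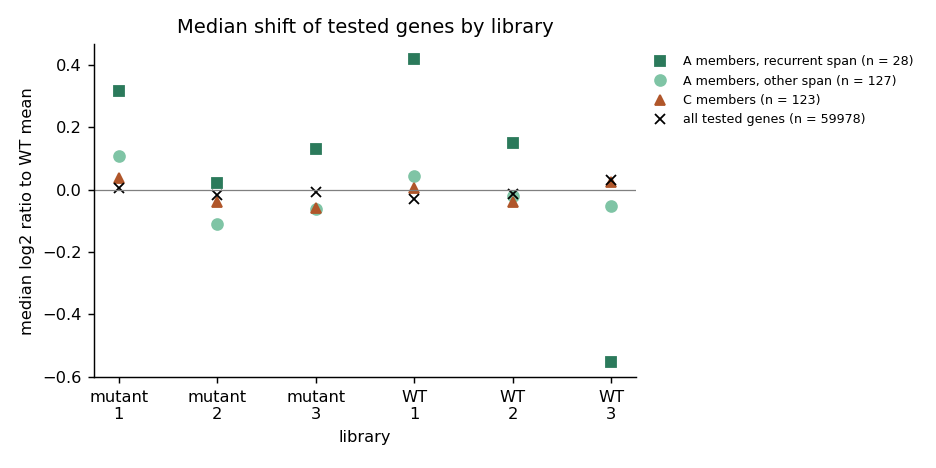
Median log2 ratio of CPM (offset 0.5) to the WT mean (y axis) in each library (x axis), for tested A genes of gene-poor windows with a recurrent span (n = 28), the other tested A genes (n = 127), the tested C genes (n = 123) and all tested genes. The A genes with recurrent spans range from 0.42 in WT replicate 1 to -0.55 in WT replicate 3, while the C genes stay between -0.06 and 0.04.

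Fewer genes of the gene-poor windows passed the test than in the whole table. The edgeR quasi-likelihood test, with p-values adjusted over all 59978 tested genes and a threshold of 0.05, called 35 of the 278 genes higher in the mutant (12.6%), where 24.3% of all tested genes were called higher. It called 50 lower (18.0%), where 25% of all tested genes were called lower. The other 193 did not pass, and of all tested genes 49.3% were called in either direction. With a change of at least 2-fold required as well, 12 genes were higher and 26 lower (4.32% and 9.35%), against 9.09% and 12.8% of all tested genes. All 3 mutant values lay above all 3 WT values for 45 genes (16.2%), against 29.3% of all tested genes, and below them for 68 (24.5%), against 30.1%. These counts describe the genes, and the difference from the table was not tested. In whole cotyledons, fewer cells of a type and less RNA per cell cannot be told apart.

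The share of called genes on A was below that on C, a difference that was not tested. On A, 14 of 155 genes were higher in the mutant (9.03%) and 23 lower (14.8%), where 23.4% and 25.9% of the other tested A genes were called. On C, 21 of 123 genes were higher (17.1%) and 27 lower (21.95%), where 26.2% and 25.1% of the other tested C genes were called. The called A genes were spread unevenly. On A01, A05 and A09, 11 of 73 tested genes were called (15.1%), and on the other A chromosomes 26 of 82 (31.7%). Among called genes the median log2 change was 1.16 on A and 0.58 on C for those higher in the mutant, and -0.87 on A and -1.07 on C for those lower.

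The level of the genes moved with these shares. All tested genes were split into 4 equal classes at mean levels of 0.837, 3.62 and 11.9 CPM. In the lowest class, 7.89% of 114 gene-poor genes were called, against 26.6% of all tested genes in the class. In the class above it the shares were 29.9% of 67 genes and 44.2%. In the next class they were 53.7% of 54 genes and 59.4%, and in the highest class 62.8% of 43 genes and 67.1%. On A, 75 of the 155 genes fell in the lowest class, of which 4.00% were called, and on C 39 of 123, of which 15.4% were called. In the highest class, 71.4% of 14 A genes and 58.6% of 29 C genes were called. How far level sets the gap between A and C was not tested.

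The tested genes had no common direction. The median log2 change was 0.032 over the 278 genes and 0.017 over all tested genes. It was 0.11 on A, but -0.094 without mutant replicate 1, -0.10 without WT replicate 3 and 0.27 without WT replicate 1. It was 0.017 on C, but -0.075 without mutant replicate 1 and -0.046 without WT replicate 3. With recurrent spans left out, the A genes had a median of -0.013 (n = 127). The C median was below 0 under 11 of 24 alternative settings, so it has no stable sign.

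The windows were ranked by gene number into 10 equal classes, of which the gene-poor windows are the first. The first class had the smallest share of tested genes on A and on C, and the smallest share of called genes on C, while on A the second class had a smaller one. On A, 23.9% of tested genes were called in the first class and 20.8% in the second, and 42.9% to 53.2% in the others. On C, 39.02% were called in the first class and 44.7% in the second, and 47.8% to 54.3% in the others. Over 941 windows, the share of genes tested and the number of genes had a Spearman rho of 0.737, given as a description, since neighbouring windows and all libraries are shared. The log2 change of a window's summed counts and its number of genes had a rho of 0.064 over 906 windows. At the threshold, the 4 windows with 22 genes each had 33 tested genes, 2 higher and 7 lower in the mutant. Over all tested genes, 24.3% were called higher and 25% lower. The 4 windows with 23 genes, just outside, had 24 tested genes. Of these, edgeR and DESeq2 called 0 and limma voom 1 higher, with 1 by edgeR and 0 by DESeq2 at an unadjusted p under 0.05. Their median level was 0.323 CPM, with 0 genes at 1 CPM or more, against 1.54 CPM in the windows with 22 genes. Their median biological coefficient of variation was 0.414, against 0.207.

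**Figure D3:**
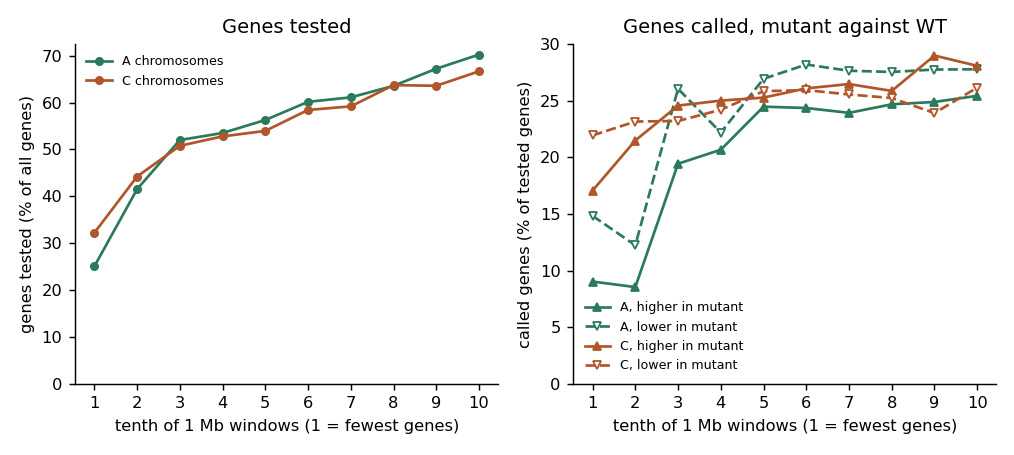
Windows are ranked by gene number into 10 equal classes (x axis, 1 with the fewest genes) for A and C chromosomes. The left panel gives tested genes as a percentage of all genes, 25.04% on A and 32.2% on C in class 1, and the right panel gives genes called higher or lower in the mutant as a percentage of tested genes, with classes 1 and 2 on A the lowest.

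The gene-poor windows took a smaller part of the counts in the mutant than in WT. They held 0.292%, 0.301% and 0.296% of the counts in the mutant libraries and 0.352%, 0.356% and 0.364% in the WT libraries. All 3 mutant values lay below all 3 WT values. The A windows held 0.0805% ± 0.00263 in the mutant and 0.107% ± 0.00212 in WT, a ratio of 0.7502, and the C windows 0.216% ± 0.00699 in the mutant and 0.24995% ± 0.00491 in WT, a ratio of 0.864 (SD, n = 3 each). The other A genes had a ratio of 0.985 and the other C genes 1.015. With 3 libraries against 3, an exact two-sided permutation test cannot give a p below 0.1, so none is given.

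A single gene held much of the gap between the genotypes on A. A gene at A03 39883095 to 39883754, chosen after its values were seen for having the most counts on A, held 25.3% of the A counts and averaged 120 ± 10.3 CPM in the mutant and 342 ± 25.5 CPM in WT (SD, n = 3 each). Without it and the C gene with the most counts, the mutant share was 0.946 of the WT share on A and 0.887 on C. That C gene, at C08 12057676 to 12060445, held 36.5% of the C counts and averaged 779 ± 81.3 CPM in the mutant and 916 ± 39.2 CPM in WT, with a log2 change of -0.23 that did not pass the edgeR test (adjusted p = 0.0851). With genes starting within 5 Mb of a chromosome end left out, which removes the A03 gene with the most counts, the A ratio was 0.939. A second A gene, BnaA08G0059700ZS, averaged 1.57 ± 0.181 CPM in the mutant and 89.4 ± 29.0 CPM in WT (SD, n = 3 each). All tested A genes summed to 815 CPM in the mutant and 1055 CPM in WT. The A03 and A08 genes together had a larger gap than that, so the sum of the other tested A genes was not lower in the mutant.

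**Figure D4:**
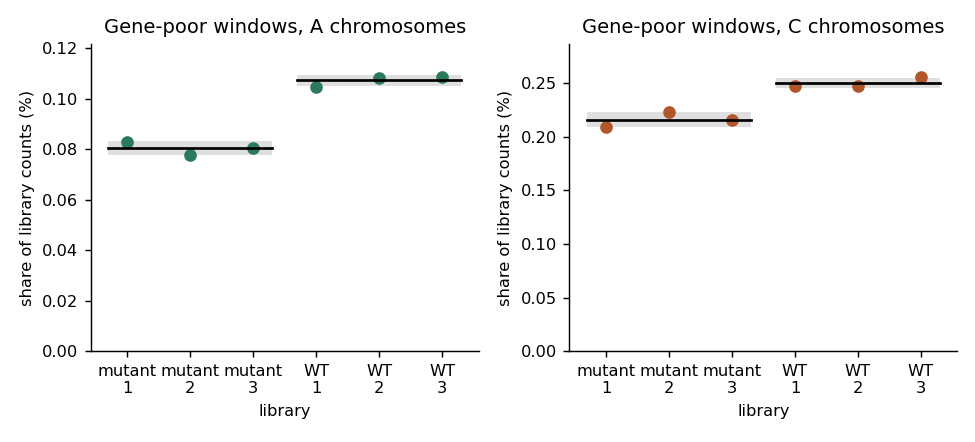
Share of each library's counts (y axis, %) in gene-poor windows of the A (left) and C (right) chromosomes, by library (x axis). Points are libraries, lines are genotype means and grey bands are 1 SD. Every mutant library lies below every WT library on both subgenomes.

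Counts were also summed per window and tested over all windows. Of the 91 windows, 20 had no read in any library, 14 on A and 6 on C, and 59 reached a summed count of 30 and were tested, 35 on A and 24 on C. The edgeR test on window sums, adjusted over 924 windows, called 4 of these 59 gene-poor windows higher in the mutant and 10 lower. Of all tested windows, 37.8% were called higher, 25.5% lower and 63.3% in either direction. On A, 2 windows were higher and 4 lower, and on C, 2 were higher and 6 lower. Without WT replicate 3, 7 windows were called higher and 10 lower. All mutant values lay above all WT values in 9 of the 59 tested gene-poor windows and below them in 17 of the 59, against 42.4% and 28.6% of all windows. Sums of so few genes often rested on single genes. The gene with the most counts held a median of 55.6% of a gene-poor window's counts, against 22.4% in the other windows.

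Among called A windows averaging 5 CPM or more, the largest fall was in A03 39 to 40 Mb, with 9 genes. It held 138, 159 and 149 CPM in the mutant libraries and 347, 392 and 356 CPM in the WT libraries. Its log2 change was -1.30 (SE 0.0707, edgeR adjusted p = 7.83e-06), and 90.3% of its counts came from the A03 gene with the most counts. The largest rise among them was in A09 42 to 43 Mb, with 12 genes. It held 179, 171 and 157 CPM in the mutant libraries and 95.6, 101 and 96.5 CPM in the WT libraries, a log2 change of 0.79 (edgeR adjusted p = 7.42e-05). Here 83.1% of the counts came from 1 gene. In both windows the genotypes did not overlap. Below that level, A07 6 to 7 Mb fell further, to 1.87 ± 0.379 CPM in the mutant, against 6.36 ± 1.44 CPM in WT (log2 change -1.77, edgeR adjusted p = 0.00110, SD, n = 3 each).

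On C, the largest rise and the largest fall among called windows of at least 5 CPM were in adjacent windows. C02 44 to 45 Mb rose to 94.1 ± 1.81 CPM in the mutant, against 66.003 ± 2.92 CPM in WT (log2 change 0.51, edgeR adjusted p = 0.000811). C02 45 to 46 Mb fell to 48.6 ± 1.47 CPM in the mutant, against 67.4 ± 3.36 CPM in WT (log2 change -0.47, edgeR adjusted p = 0.00246, SD, n = 3 each). Below 5 CPM, larger falls were called in C04 26 to 27 Mb (log2 change -2.09, edgeR adjusted p = 0.00165) and in C07 15 to 16 Mb (log2 change -3.83, edgeR adjusted p = 0.0480). The C07 window had only 57 reads over all libraries, and its genotypes overlapped. It held 0, 0.038 and 0.018 CPM in the mutant libraries and 0.017, 0.444 and 0.453 CPM in the WT libraries. The windows with the highest level were C08 12 to 13 Mb, at 987 ± 83.7 CPM in the mutant and 1163 ± 41.4 CPM in WT, and C03 52 to 53 Mb, at 459 ± 46.4 CPM in the mutant and 583 ± 32.7 CPM in WT. Both fell, with log2 changes of -0.24 and -0.34 (edgeR adjusted p = 0.0123 and 0.00577). The gene with the most counts held 78.9% of the counts in the C08 window and 52.1% in the C03 window.

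The longest runs differed. On A it was A03 34 to 42 Mb, with 8 windows and 85 genes. Of its 37 tested genes, 4 were higher and 4 lower in the mutant, where 24.3% of all tested genes were called higher and 25% lower. Its summed level was 227 ± 8.02 CPM in the mutant and 444 ± 21.7 CPM in WT, most of the gap lying in A03 39 to 40 Mb. On C it was C06 0 to 5 Mb, with 5 windows and 60 genes. Of its 10 tested genes, 1 was higher and 1 lower, and its summed level was 38.0 ± 3.54 CPM in the mutant and 34.6 ± 0.282 CPM in WT (SD, n = 3 each). The windows with the fewest genes, A09 40 to 41 Mb, C05 31 to 32 Mb and C07 14 to 15 Mb, had 1 gene each and no read in any library.

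The genes with the largest changes on each subgenome were taken among called genes whose mean reached 2 CPM and whose genotypes did not overlap, of which there were 24 higher and 35 lower. The largest fall on A was in BnaA08G0059700ZS (A08, 6072143 to 6074015, minus strand, 1873 bp). It had 1.37, 1.60 and 1.73 CPM in the mutant libraries and 74.1, 71.2 and 123 CPM in the WT libraries, a log2 change of -5.83 (SE 0.245, edgeR adjusted p = 5.50e-08). It had 244 reads in the mutant and 15448 in WT.

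The largest fall on C was in BnaC08G0083800ZS (C08, 12258905 to 12260775, minus strand, 1871 bp). It had 1.33, 1.14 and 1.44 CPM in the mutant libraries and 46.6, 43.5 and 81.7 CPM in the WT libraries, a log2 change of -5.45 (SE 0.272, edgeR adjusted p = 1.60e-07). The A08 and C08 genes had nearly the same span, and WT replicate 3 was the highest library for both. Whether they are copies of each other, and so could share reads, was not analysed here.

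The rises were smaller. BnaA03G0573700ZS (A03, 34100801 to 34105754, minus strand) had 3.74, 6.77 and 7.73 CPM in the mutant libraries and 1.24, 0.675 and 1.59 CPM in the WT libraries, a log2 change of 2.40 (SE 0.325, edgeR adjusted p = 0.000160). BnaC09G0315600ZS (C09, 32645443 to 32648721, minus strand) had 8.19, 7.76 and 6.33 CPM in the mutant libraries and 1.45, 1.10 and 1.81 CPM in the WT libraries, a log2 change of 2.36 (SE 0.185, edgeR adjusted p = 3.66e-06). In both genes the lowest mutant library lay above the highest WT library, which the choice of genes required.

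**Figure D5:**
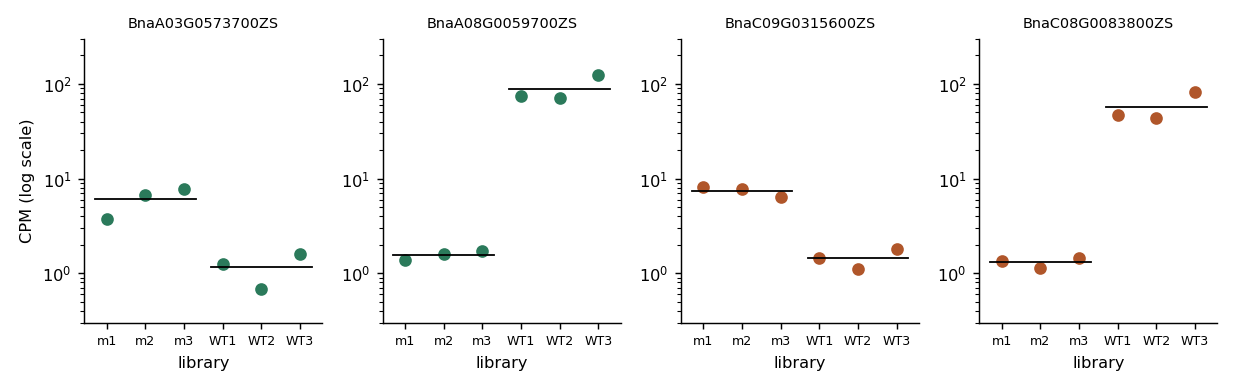
CPM on a log axis (y axis) in the mutant (m1 to m3) and WT libraries (x axis) for the genes with the largest rise and the largest fall on A and on C. Points are libraries and lines are genotype means. The A08 and C08 genes lie between 1.14 and 1.73 CPM in the mutant and at 43.5 CPM or more in WT.

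Called genes next to each other did not mostly share a direction. In the gene-poor windows there were 17 pairs of adjacent called genes, of which 7 changed in the same direction (41.2%), 4 of 10 on A and 3 of 7 on C. Over all chromosomes the share was 59.0% of 10922 pairs. With only 17 pairs in the gene-poor windows, the difference was not tested. The pairs lay a median of 13.2 kb apart in the gene-poor windows and 1.73 kb apart over all chromosomes.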

How the data were processed

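Cotyledon polyA RNA of 3 bnsdp1 mutant and 3 WT libraries was measured. The deposited values are raw counts per gene, per the file headers. fastp, HISAT2 and featureCounts are named in the submitters' processing notes; for versions, settings, strand use and genome build, the sources used here give nothing. Coordinates are those of the deposited files. In 100% of rows the gene length equalled the span from start to end, so counts can include introns, and copies with near-identical sequence may share reads. Of the nonzero counts, 70.7% were even numbers (66.9% in gene-poor windows); whether both reads of a pair were counted is not given.

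Genes with a summed count of at least 30 were tested with edgeR 4.0.16 (R 4.3.3, TMM scaling, quasi-likelihood F test, Benjamini-Hochberg adjustment over 59978 genes, threshold 0.05). CPM used the TMM-scaled library sizes, and levels per kilobase used the gene span. Window sums were tested in the same way over 924 windows with the TMM factors of the gene table. Windows 1 Mb long were used. The gene-name table held 123214 genes and matched 0 of the IDs. On simulated counts, the gene step recovered 20%, 58%, 66% and 78% of genes changed 1.5, 2, 4 and 8 fold for mutant against WT. It made 22 false calls. Only 200 of the 59978 tested genes were changed there, drawn from the whole table, while 49.3% were called in the data. These shares therefore do not give the power of the test for gene-poor genes.

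Genes were named by a fixed rule: the largest rise and fall on A and on C among called genes with at least 2 CPM and no overlap between genotypes. Windows were named by highest level, longest run, fewest genes, and largest rise and fall on A and on C among called windows averaging 5 CPM or more. The members and lists were chosen with earlier results of these data known. Alternatives were DESeq2 1.42.0, limma voom 3.58.1, other filters, scalings and window definitions, and leaving out each library. As a check for repeated deposits of a library, libraries of 1 genotype differed by more than counting noise, with a mean chi-square per gene of at least 7.27. This does not show that they are biological replicates.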

Additional observations from a re-analysis of the deposited data

How the results depend on the processing

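Of 289 alternative values for counts, shares and medians, 257 stayed close to the value reported. Close meant counts and shares of called genes or windows within 1.5 times, and medians and ratios within 1 SD between libraries. Some of the 257 could not move, among them all values with the A01, A07 and C06 stretches left out. The same held for A values with last windows kept and for C values with the A05 and A09 stretches kept. All 52 values for the 4 named genes kept direction and threshold (largest edgeR, DESeq2 or limma adjusted p = 0.00107). These genes were chosen for the largest changes in the same libraries, so kept calls were likely beforehand and are no separate support. Close values can still change sign: the median was below 0 under 3 of 24 alternatives on A, with -0.013 when recurrent spans were left out, and under 11 of 24 on C, with -0.031 by limma voom, -0.030 by library size alone and -0.028 with the replicate block. The cause of the shifts was not tested. The share of A genes called higher was 5.93% without the filter on low counts. Taking 5% of windows gave 3.85% of A genes called higher and 3.85% lower (1 of 26 each), medians of 0.35 on A and -0.088 on C, and mutant over WT ratios of counts of 0.635 in all, 0.535 on A and 0.937 on C. Taking 20% gave ratios of 0.928, 0.847 and 0.946 in the same order. Shifting the windows gave 2.11% higher and 6.32% lower on A and ratios of 0.775, 0.600 and 0.816. Ranking within A and within C gave an A median of 0.27 and ratios of 0.703 on A and 0.828 on C. With 2 Mb windows the A ratio was 0.700. The next choices were added after seeing the data: leaving out 5 Mb at chromosome ends gave a C median of -0.037 and ratios of 0.877 in all and 0.939 on A, and leaving out the gene with the most counts on A and on C gave 0.905 in all and 0.946 on A. Without the 100 genes with the most counts the ratio in all was 0.806. Leaving out the A01 0 to 15 Mb, A07 26 to 32 Mb and C06 44 to 52 Mb stretches removed no gene.

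Leaving out each library gave 25704 to 28700 called genes in the table, 9.71% to 12.9% of gene-poor genes higher and 15.5% to 18.0% lower, on A 7.74% to 10.97% and 12.3% to 15.5%, and on C 11.4% to 18.7% and 19.5% to 21.95%. Medians ran from -0.10 to 0.27 on A and from -0.075 to 0.030 on C. Ratios of counts ran from 0.823 to 0.838 in all, 0.739 to 0.763 on A and 0.849 to 0.877 on C. Called windows numbered 523 to 576, with 3 to 7 gene-poor windows higher and 8 to 10 lower. Deviations of same-numbered libraries correlated at 0.19, -0.04 and 0.09, and those of differently numbered libraries at -0.19 to 0.13. These values do not settle whether the libraries were paired. With the replicate number as a block, edgeR called 28664 genes and 581 windows, 12.2% of gene-poor genes higher and 17.6% lower, 4 gene-poor windows higher and 9 lower, and the 4 named genes kept their calls. Low counts limit what can be seen: 594 of the 1001 genes had no read and 129 had 1 to 29, and p-values rest on 3 libraries against 3.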
